A study of Mus musculus with 20 samples.

Results

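The set described here holds 42 genes of the dividing cell, 19 that act in S phase and 23 that act in G2 and mitosis, followed through 12 RNA libraries of sorted embryonic mouse skin cells. They are the listed genes that carry a row in each of the 12 count files, and they are 42 of the 23432 gene symbols counted. Each had at least 1 count in every library, and each passed the filter on low counts. The lowest count was 27, for Ccne1 in KO replicate 3, and the highest was 18324, for Mki67 in E13 Het replicate 2.

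The libraries form 4 groups of 3. KO epidermis came from embryonic day 13 (E13) embryos labelled as knockout for the delta-N form of p63 through a GFP knock-in, E13 Het epidermis from heterozygous embryos of that knock-in at the same age, E9 Het epidermis from heterozygous embryos at embryonic day 9, and the dermis from E13 embryos with the same heterozygous genotype label, though the titles of these libraries call them controls (Ctrl). By its genotype label every group thus carried the GFP allele of Trp63, the gene of p63, a transcription factor needed for stratified epithelia, and no library is labelled as lacking it. Epidermal cells were collected from dissociated back skin by GFP fluorescence, which reports cells that use the tagged promoter, and their RNA was freed of ribosomal RNA. Dermal cells were collected by antibody staining for CD140a, which Pdgfra encodes, and their RNA was selected with oligo(dT). The E9 libraries are numbered 1, 2 and 4 and the others 1, 2 and 3, and values below follow that order. The labels do not say that the replicates of a group came from separate embryos, so p-values measure only the spread between these libraries.

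A cell that commits to division first licenses and then copies its DNA, and the genes for the replicative helicase, its loaders, the polymerases and the deoxynucleotide enzymes are switched on together by E2F transcription factors before S phase. A later set of genes, for the mitotic kinase Cdk1 and its cyclins, the spindle, the kinetochore and the checkpoint that watches chromosome attachment, is held down until S phase has passed, and its promoters typically carry a CHR element (cell cycle genes homology region) and CCAAT boxes. Growing embryonic epidermis depends on such divisions, first as a simple surface epithelium and later to feed its upper layers.

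Promoter sequence is shown because the S phase and the G2 and mitosis genes carried these motifs in different shares. The windows were chosen for their motif matches. They come from Mcm5, Mcm6 and the G2 and mitosis genes with CHR letters whose RNA differed in at least 1 comparison below. Mcm6 itself differed in none of them. Mcm3, Mcm7, Mcm10, Pcna and Ccnb1 differed and are not shown. Ccna2, Foxm1 and Tpx2 differed as well, but no promoter was found for them. RefSeq promoters of GRCm38.p6, from 250 bases before to 50 after the start of the gene, were found for 34 of the 42 genes, 16 of S phase and 18 of G2 and mitosis, among 27025 promoters in all. The start meant here is that of the promoter set, which for some genes is not the start of the annotated span. By the annotated span the Cenpf and Kif23 windows lie inside the gene, and the Top2a window crosses its start. The motifs searched on both strands were TTTGAA and TTCGAA for the CHR element (TTCGAA reads the same on both strands), TTTCCCGC, TTTGGCGC, TTTGCCGC and TTTCGCGC for E2F sites, and CCAAT for the CCAAT box. Capitals below mark matches to any of these, in either orientation, so that a match on the other strand appears as TTCAAA, GCGCCAAA, GCGCGAAA or ATTGG, and overlapping matches run together. Each line gives the gene, the position of the window on GRCm38.p6 with the strand of the gene, and the sequence of that strand 5′ to 3′.
S phase, windows that lie before the start of the gene:
Mcm5 (chr8:75109339-75109398, plus strand): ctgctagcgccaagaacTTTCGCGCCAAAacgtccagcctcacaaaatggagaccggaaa
Mcm6 (chr1:128359736-128359825, minus strand): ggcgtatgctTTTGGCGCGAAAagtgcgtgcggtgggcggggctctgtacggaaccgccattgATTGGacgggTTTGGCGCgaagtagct
G2 and mitosis, windows that lie before the start of the gene:
Cdk1 (chr10:69352913-69353062, minus strand): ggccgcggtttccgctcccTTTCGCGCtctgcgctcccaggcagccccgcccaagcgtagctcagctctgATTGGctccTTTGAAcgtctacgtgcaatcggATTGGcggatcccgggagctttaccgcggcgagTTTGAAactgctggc
Cdc20 (chr4:118437344-118437443, minus strand): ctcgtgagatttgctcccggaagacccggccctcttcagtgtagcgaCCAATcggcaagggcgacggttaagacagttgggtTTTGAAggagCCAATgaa
Kif11 (chr19:37376351-37376380, plus strand): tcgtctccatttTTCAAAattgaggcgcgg
Top2a (chr11:99024195-99024224, minus strand): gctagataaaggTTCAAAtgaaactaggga
Mki67 (chr7:135716460-135716489, minus strand): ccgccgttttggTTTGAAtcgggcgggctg
G2 and mitosis, windows across the start (Cenpf and Kif23) or in the first transcribed bases (the others):
Cenpf (chr1:189688067-189688096, minus strand): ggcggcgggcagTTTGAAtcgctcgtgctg
Kif23 (chr9:61946780-61946809, minus strand): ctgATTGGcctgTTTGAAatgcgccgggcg
Plk1 (chr7:122159453-122159482, plus strand): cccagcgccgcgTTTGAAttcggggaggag
Bub1 (chr2:127831828-127831857, minus strand): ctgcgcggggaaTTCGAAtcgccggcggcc
Bub1b (chr2:118598231-118598260, plus strand): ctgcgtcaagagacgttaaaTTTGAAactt
Cenpa (chr5:30666890-30666919, plus strand): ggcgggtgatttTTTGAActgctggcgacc

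The CHR letters stood in 14 of the 18 G2 and mitosis promoters (77.8%) and in 2 of the 16 S phase promoters (12.5%), those of Mcm2 and Mcm7, against 19.4% of all 27025 promoters. The E2F letters stood in 7 of the 16 S phase promoters (43.8%), of Mcm3, Mcm5, Mcm6, Mcm7, Cdc6, Cdt1 and Pola1, and in 1 of the 18 G2 and mitosis promoters (5.56%), that of Cdk1, against 2.32% of all promoters. CCAAT was found in 16 of 18 (88.9%) and 11 of 16 (68.8%), against 37.9% of all. These are matches of letters, not measured sites. Cdk1, whose kinase drives entry into mitosis, carried all 3 motifs within the 150 bases printed. Of the 12 G2 and mitosis genes that passed a test below and had a promoter in the table, 11 held CHR letters, and Ccnb1 did not within this window.

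Counts assigned to genes came to 3373819 to 7777808 per epidermal library and 16931664 to 33386872 per dermal library. Genes with at least 1 count were fewest in E13 Het replicate 1 (10765) and KO replicate 3 (11275), against up to 16200 in the other epidermal libraries. Trp63 had 23.1, 25.02 and 20.5 CPM in KO epidermis and 520.2, 612 and 455 CPM in E13 Het epidermis. Trp63 had 279, 218 and 122 CPM in E9 Het epidermis and 0.463, 0 and 2.15 CPM in dermis. The KO libraries lay far below the E13 Het libraries with no overlap (-4.54 ± 0.28, adjusted p = 1.5e-06). Pdgfra, whose product was used to sort dermis, averaged 55.2 ± 30.2 CPM in KO epidermis and 30.8 ± 22.9 CPM in E13 Het epidermis. Pdgfra averaged 30.8 ± 13.7 CPM in E9 Het epidermis and 815 ± 186 CPM in dermis (SD, n = 3 each). All 12 listed epidermis markers had counts in each epidermal group, with sums of 3777 to 4895 CPM in KO, 5078 to 7141 CPM in E13 Het and 2615 to 2813 CPM in E9 Het libraries, against 17.4 to 19.96 CPM in dermis, where Cldn6 was at 0. In KO against E13 Het epidermis, 7 of these 12 had estimates above 0 and 5 below. Krt5 and Krt14 averaged 34.5 and 14.99 CPM in KO and 1228 and 764 CPM in E13 Het libraries. Krt8 and Krt18 averaged 852 and 768 CPM in KO and 239 and 156 CPM in E13 Het libraries. E13 Het replicate 3 stood apart, with 628 CPM of Krt8 and 413 CPM of Krt18, against at most 67.6 and 29.4 CPM in replicates 1 and 2. Of 15 dermal mesenchyme markers, 15, 15 and 11 had counts in KO, E13 Het and E9 Het libraries, summing to 1982 to 3246 CPM, 1332 to 2505 CPM and 385 to 501 CPM, against 36765 to 49379.6 CPM in dermis. Dpt, Lum, Dcn and Twist2 were at 0 in the E9 libraries.

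Levels here are CPM, counts per 1000000 of a library total, with totals scaled by the trimmed mean of M values (TMM), and changes are log2 fold changes ± standard error. A gene was called where the adjusted p of edgeR's quasi-likelihood test, by Benjamini-Hochberg over all genes tested, was under 0.05. Across the 4 comparisons 20 of the 42 genes were called at least once, 5 of S phase and 15 of G2 and mitosis, and 22 never were. Of all genes tested, 34.7% were called in E13 Het epidermis against dermis alone, and 2.2% to 7.67% in the epidermal comparisons. The share of all genes called at least once was not counted, so 20 of 42 is not read as a trait of this set. Among the 3 epidermal groups the E9 Het libraries had the highest mean level for 22 of the 23 G2 and mitosis genes, the exception being Ccnb2, and for 11 of the 19 S phase genes. KO libraries had the lowest mean for 20 of the 23 and for 14 of the 19. How often genes at large took these orders was not counted, so no share over all genes stands beside these counts. RNA of sorted cells pooled in a library cannot tell fewer dividing cells from less of the RNA per dividing cell.

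**Figure D1:**
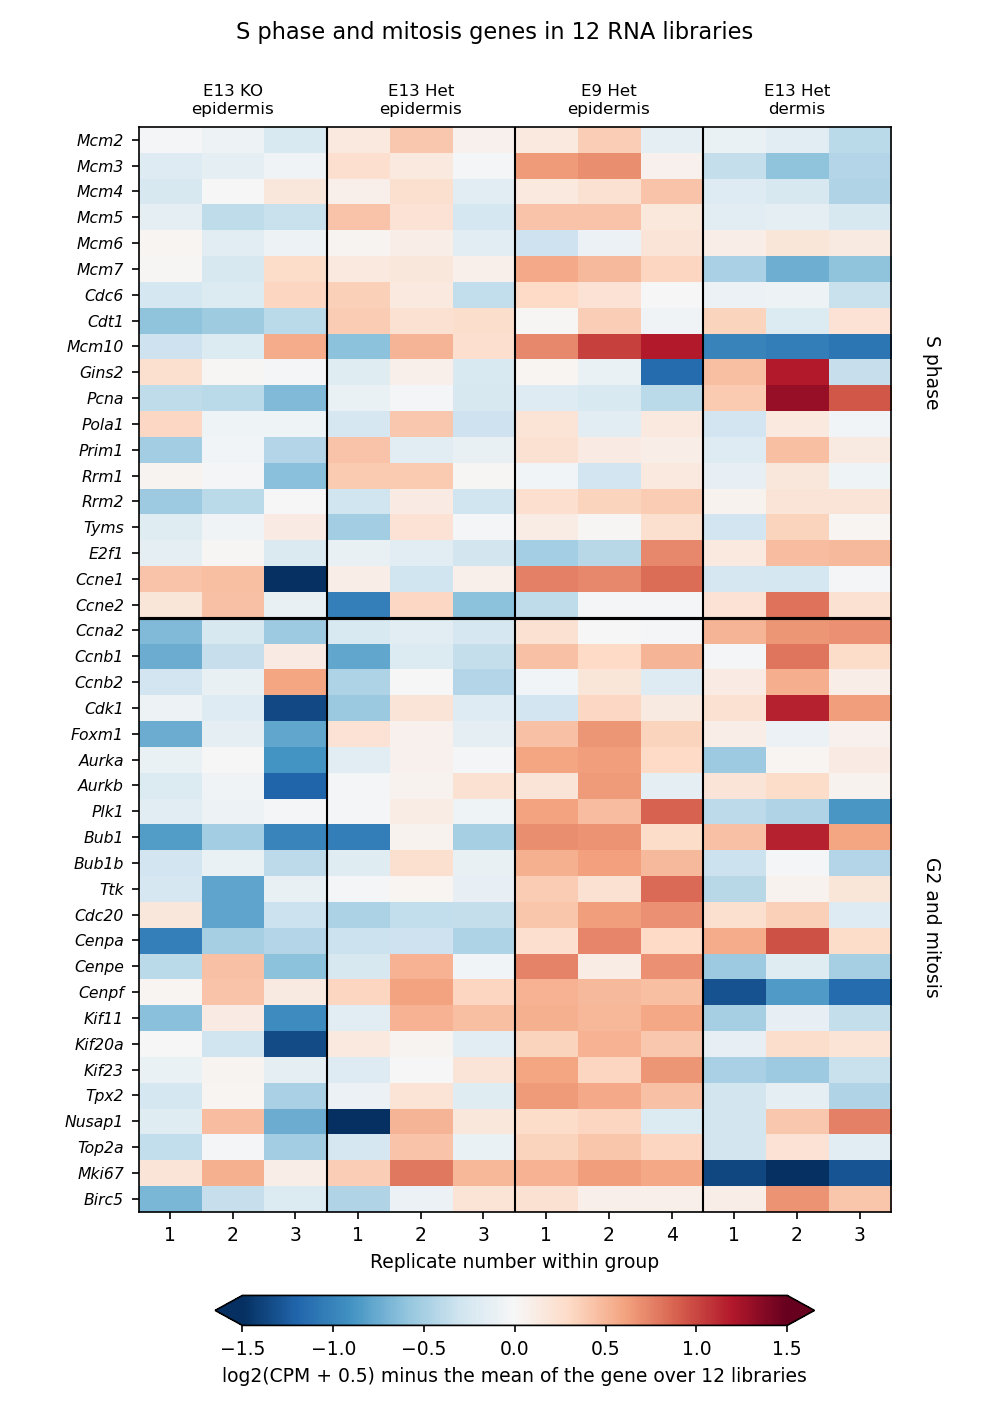
Level of each of the 42 genes in each of the 12 libraries, as log2(CPM + 0.5) minus the mean of that gene over the 12 libraries, with groups in columns, S phase genes above the black line and G2 and mitosis genes below it. Red is above and blue below the mean of the gene; the E9 Het columns are red for most G2 and mitosis genes, and KO replicate 3 and E13 Het replicate 1 hold many of the darkest blue cells among epidermal libraries.

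Summed over the 19 S phase genes, the libraries held 2247, 2191 and 2245 CPM in KO epidermis, 2597, 2801 and 2277 CPM in E13 Het epidermis, 2825, 2884 and 2782 CPM in E9 Het epidermis, and 2258, 2626 and 2320 CPM in dermis. The KO sums lay below all E13 Het sums, by little in the case of E13 Het replicate 3. Summed over the 23 G2 and mitosis genes, they held 3952, 4947 and 3689 CPM in KO epidermis, 4382, 5910 and 4872 CPM in E13 Het epidermis, 6005, 6117 and 5992 CPM in E9 Het epidermis, and 3126, 3902 and 3423 CPM in dermis. The E9 sums lay above every E13 sum, epidermal or dermal, while the KO and E13 Het sums overlapped. Mki67 and the other most abundant genes carry most weight in such sums.

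The ratio of the G2 and mitosis sum to the S phase sum, which is only meant to be compared across libraries, was 1.76, 2.26 and 1.64 in KO epidermis, 1.69, 2.11 and 2.14 in E13 Het epidermis, 2.13, 2.12 and 2.15 in E9 Het epidermis, and 1.38, 1.49 and 1.48 in dermis. The E9 ratios were close together, and KO replicate 2 was above them. With Mki67 left out it was 1.09, 1.39 and 1.02 in KO epidermis, 1.03, 1.30 and 1.32 in E13 Het epidermis, 1.46, 1.42 and 1.45 in E9 Het epidermis, and 1.16, 1.32 and 1.24 in dermis, so that without this gene the E9 libraries stood above all others and the E13 epidermal and dermal libraries overlapped.

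**Figure D2:**
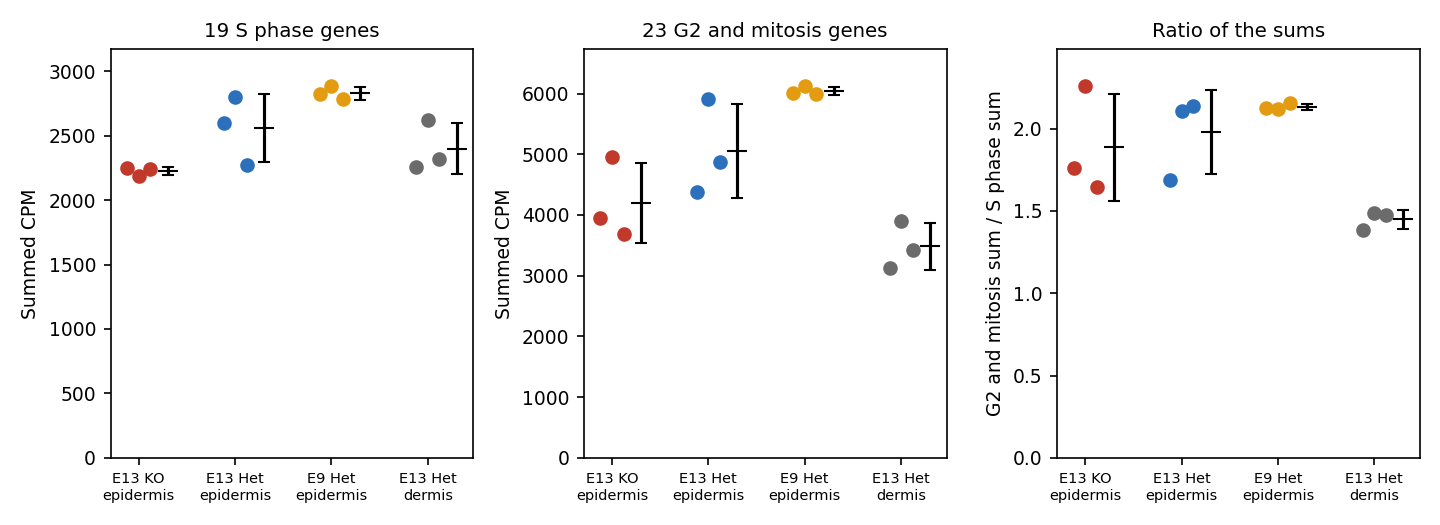
Summed CPM of the 19 S phase genes (left) and the 23 G2 and mitosis genes (middle), and the ratio of both sums (right), with 1 point per library and the mean and SD of 3 libraries beside the points. The E9 Het sums of the G2 and mitosis genes, 5992 to 6117 CPM, lie above those of all other libraries, and the dermal ratios, 1.38 to 1.49, lie below all epidermal ones.

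KO against E13 Het epidermis compares the genotypes at 1 age. Of the 42 genes none was called, with 0 of 19 for S phase and 0 of 23 for G2 and mitosis, against 2.2% of the 13052 genes tested. At an unadjusted p under 0.05, edgeR gave 4 S phase and 3 G2 and mitosis genes (11.4% of all genes). After adjustment DESeq2 called 1 S phase and 0 G2 and mitosis genes, and limma voom 1 and 1. Over all genes DESeq2 called 650 of 17965 and limma voom 635 of 13052, beside 287 by edgeR. Without KO replicate 2, edgeR called 1 G2 and mitosis gene, and 217 genes in all. The median log2 fold change was -0.11 for S phase and -0.28 for G2 and mitosis, beside 0.03 for all genes tested. Estimates lay below 0 for 14 of the 19 and for 20 of the 23, against 48.1% of all genes tested.

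The member nearest to the threshold, singled out after its values were seen, was Cdt1, which loads the helicase onto origins. Its levels were 41.3, 43.6 and 47.7 CPM in KO epidermis and 82.3, 73.96 and 76.03 CPM in E13 Het epidermis. Cdt1 had 64.2, 81.5 and 60.7 CPM in E9 Het epidermis and 79.8, 54.5 and 73.4 CPM in dermis. All 3 KO libraries were below all other libraries of the series, and the difference from E13 Het was -0.82 ± 0.23, adjusted p = 0.0942. Groups did not overlap, KO being lower, for Cdt1, Mcm2, Mcm3, Pcna and, of the G2 and mitosis genes, Aurkb (9.35% of all genes tested did so in this direction). Mcm2, a subunit of the helicase, had 190.2, 185 and 167 CPM in KO epidermis and 216, 258 and 203 CPM in E13 Het epidermis. Mcm2 had 216, 252 and 177 CPM in E9 Het epidermis and 182, 173 and 147 CPM in dermis. Its difference of -0.33 ± 0.17, adjusted p = 0.486 did not pass. Kif11, the motor that pushes spindle poles apart, and Foxm1, a transcription factor for G2 and mitosis genes, had the smallest adjusted p of the mitotic set, at -0.73 ± 0.24, adjusted p = 0.183 and -0.59 ± 0.22, adjusted p = 0.248. The level of Kif11 in KO replicate 2 was inside the E13 Het range, and so was that of Foxm1. Sums of neuron markers were higher in KO (10 of 10 with counts, 97.9 to 178 CPM) than in E13 Het libraries (10 of 10, 1.81 to 35.6 CPM), and their part in these estimates was not tested.

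**Figure D3:**
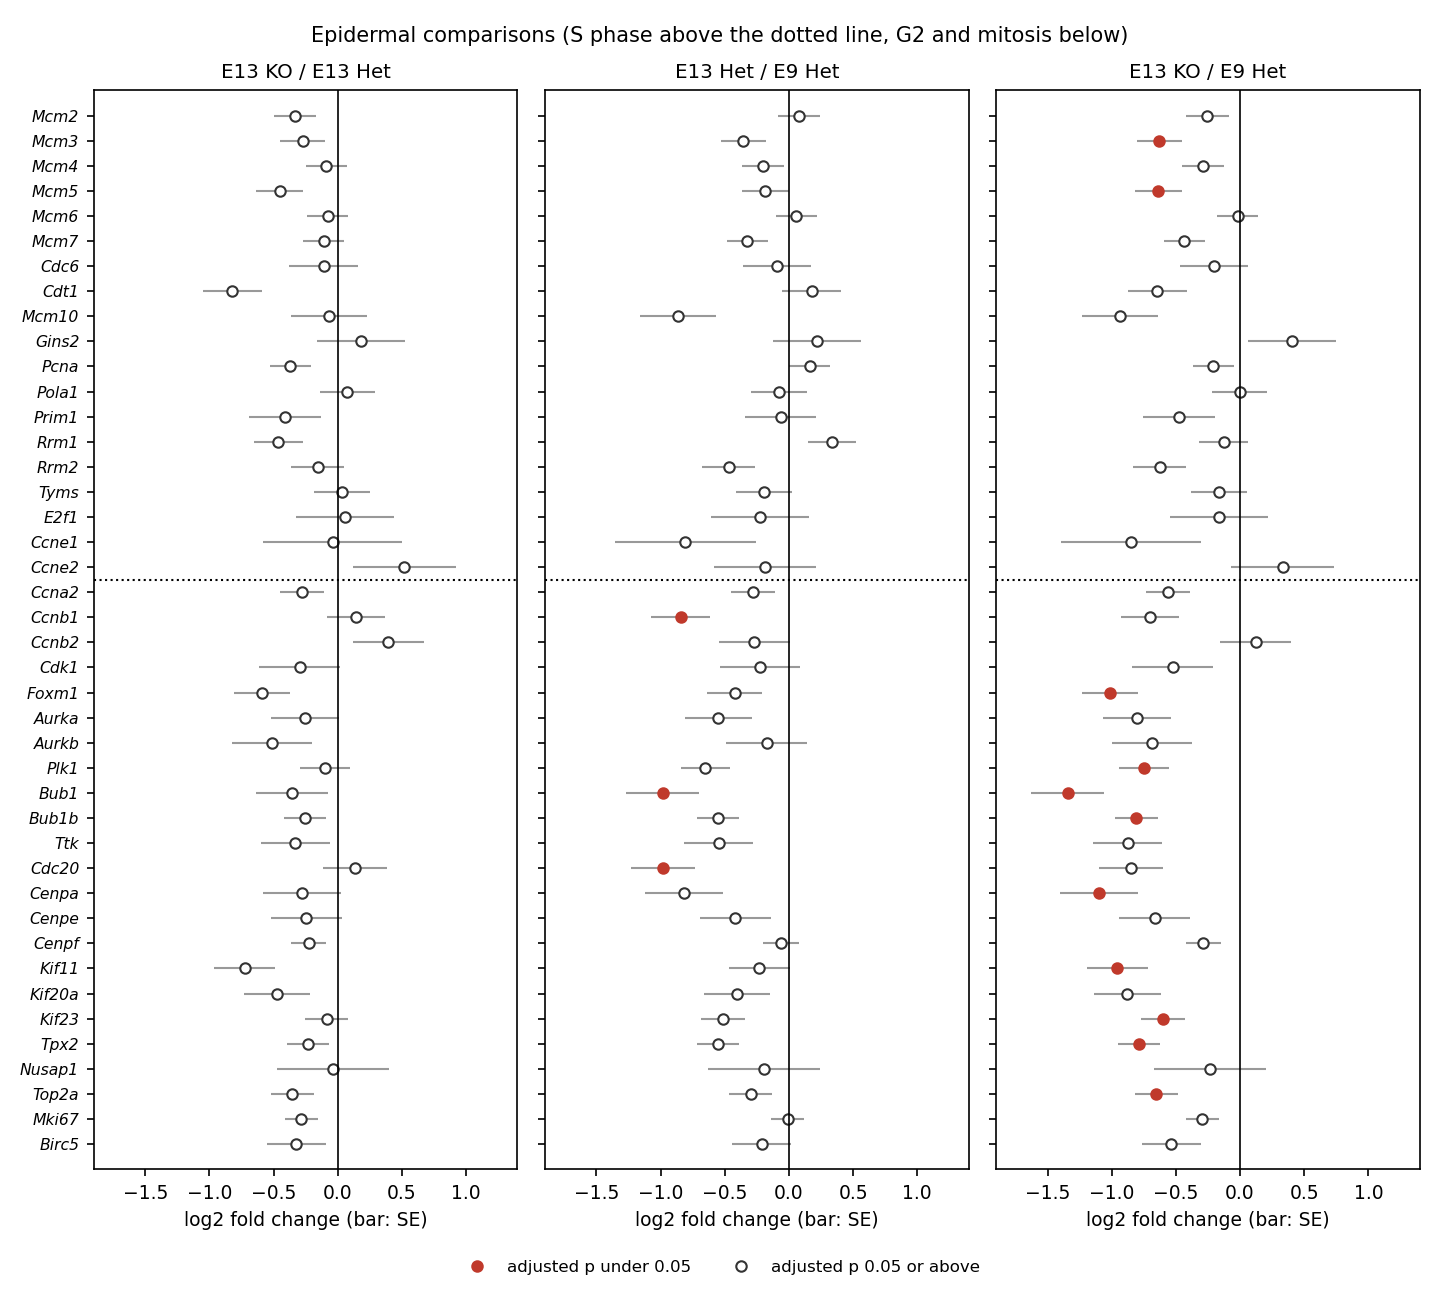
Log2 fold change (point) and standard error (bar) of each of the 42 genes in the 3 epidermal comparisons, KO over E13 Het, E13 Het over E9 Het and KO over E9 Het. Filled red points passed an adjusted p under 0.05: none on the left, 3 in the middle and 11 on the right, all below 0.

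E13 Het against E9 Het epidermis compares the ages with the genotype held. Genes for the mitotic cyclin, the checkpoint and anaphase onset fell: Ccnb1, Bub1 and Cdc20 were called lower, 3 of the 23 G2 and mitosis genes against 2.53% of all genes tested. Of all genes tested 7.29% were called, 4.77% higher. No S phase gene was called in either direction by edgeR, while 2 had an unadjusted p under 0.05 (19.7% of all genes), DESeq2 called 0 and limma voom 1. Over all genes DESeq2 called 1671 of 17965 and limma voom 1692 of 13052, beside 952 by edgeR. The median was -0.42 for G2 and mitosis and -0.18 for S phase, beside -0.0019 for all genes. All 23 G2 and mitosis estimates lay below 0, against 50.1% of all genes, and for 13 of the 23 the groups did not overlap with E13 lower, against 14% of all genes. For S phase it was 13 of 19 below 0 and 4 of 19 without overlap, namely Mcm7, Mcm10, Rrm2 and Ccne1.

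Ccnb1, cyclin B1, the partner of Cdk1 in mitosis, had 78.9, 104 and 144 CPM in KO epidermis and 76.7, 115 and 103 CPM in E13 Het epidermis. Ccnb1 had 179, 163 and 189 CPM in E9 Het epidermis and 131, 231 and 160.3 CPM in dermis. E13 Het libraries were below all E9 libraries (-0.84 ± 0.23, adjusted p = 0.0381). Cdc20, the activator that directs the anaphase-promoting complex to its targets, had 85.3, 43.5 and 60.3 CPM in KO epidermis and 54.1, 58.4 and 58.6 CPM in E13 Het epidermis. Cdc20 had 101, 117 and 122 CPM in E9 Het epidermis and 89.4, 97.2 and 65.9 CPM in dermis. The 3 E13 Het values lay close together and below each E9 value (-0.98 ± 0.25, adjusted p = 0.0276), and the span of Cdc20 overlaps that of Elovl1, another counted gene. Bub1, a checkpoint kinase at kinetochores, had 39.01, 48.6 and 34.96 CPM in KO epidermis and 33.9, 72.7 and 49.3 CPM in E13 Het epidermis. Bub1 had 113, 112 and 84.7 CPM in E9 Het epidermis and 94.6, 156 and 105 CPM in dermis. Its E13 Het libraries spread widely but stayed below the E9 range (-0.98 ± 0.28, adjusted p = 0.0498).

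Each of these calls was lost when certain single libraries were left out. Calls over all genes fell as well, from 952 to between 569 and 812 with 1 library left out. The count of 3 became 0 without E13 Het replicate 1 or 3 or E9 replicate 2 or 4, and 1 without E9 replicate 1. Ccnb1 and Bub1 were lost without any of these 5 libraries, with adjusted p up to 0.119 and 0.178, and Cdc20 was lost without any E13 Het library or E9 replicate 2 or 4, with adjusted p up to 0.102. The count was 0 without the library with fewest genes detected in each group, 7 by DESeq2 and 7 by limma voom. Over all genes these settings called 730, 1671 and 1692. The sums of dermal mesenchyme markers given above were higher in the E13 Het than in the E9 libraries. Of the 14 such markers tested, 13 had estimates above 0 and 1 below. The sums of skeletal muscle, melanocyte and neural crest, and neuron markers were lower. Endothelium sums overlapped, at 0 to 28.7 CPM in E13 Het and 1.99 to 14.5 CPM in E9 libraries. Blood sums also overlapped, at 0 to 28.5 CPM and 0 to 37.3 CPM in that order. Skeletal muscle markers summed to 0.226 to 10.5 CPM in E13 Het libraries (8 of 8 with counts) and 33.2 to 254 CPM in E9 libraries (5 of 8, Myod1, Myog and Tnnt1 at 0). Ttn weighed most in the E9 sums, with 33.2, 26.1 and 172 CPM, beside 0.226, 6.80 and 1.19 CPM in E13 Het libraries. Melanocyte and neural crest markers summed to 4.52 to 16.02 CPM in E13 Het libraries (8 of 8) and 30.7 to 61.7 CPM in E9 libraries (7 of 8, Foxd3 at 0). Neuron markers summed to 1.81 to 35.6 CPM in E13 Het libraries and 67.2 to 92.6 CPM in E9 libraries, 10 of 10 having counts in both. The part of such cells, if present, in the differences was not tested.

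KO against E9 Het epidermis compares groups that differ in genotype and age, whose effects cannot be told apart here, and it shares the E9 libraries with the comparison above and the KO libraries with the first. The calls were Foxm1, a mitotic kinase, checkpoint and centromere genes, spindle and cytokinesis genes and Top2a, 9 of the 23 G2 and mitosis genes, and 2 of the 19 S phase genes, both helicase subunits. All 11 were lower in KO, beside 3.05% of all genes tested that were called lower. None of the 42 was called higher, against 4.62% of all genes, of which 7.67% were called in all. At an unadjusted p under 0.05 there were 19 of the 23 and 6 of the 19, against 21% of all genes. The median was -0.70 for G2 and mitosis and -0.25 for S phase, beside 0.01 for all genes. Estimates lay below 0 for 22 of the 23, all but Ccnb2, and for 17 of the 19, against 49.2% of all genes. The groups did not overlap, KO being lower, for 17 of the 23 and 8 of the 19, against 15.4% of all genes. Whether the S phase and the G2 and mitosis sets differed was not tested.

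Mcm3, a helicase subunit, had 192, 199.9 and 213 CPM in KO epidermis and 262, 245 and 218 CPM in E13 Het epidermis. Mcm3 had 342, 359 and 230.3 CPM in E9 Het epidermis and 172, 145 and 163 CPM in dermis. KO libraries lay below all E9 libraries (-0.63 ± 0.17, adjusted p = 0.0416), the nearest being KO replicate 3 and E9 replicate 4. Mcm5, another subunit, had 184, 155 and 161 CPM in KO epidermis and 274, 236 and 169 CPM in E13 Het epidermis. Mcm5 had 274, 274 and 227 CPM in E9 Het epidermis and 181, 184 and 172 CPM in dermis. Its KO values were below each E9 value (-0.64 ± 0.18, adjusted p = 0.0495), and E13 Het replicate 3 fell among the KO values. The 4 other subunits had estimates of -0.25 ± 0.17 (Mcm2), -0.29 ± 0.16 (Mcm4), -0.02 ± 0.16 (Mcm6) and -0.43 ± 0.16 (Mcm7), none called. The call of Mcm3 was lost without any KO library or E9 replicate 1 or 2 (adjusted p up to 0.2) and that of Mcm5 without any 1 of the 6 libraries (up to 0.172); the S phase count was then 0 without KO replicate 1 or 2 or E9 replicate 1 or 2, and 1 without E9 replicate 4.

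Foxm1 had 60.4, 92.8 and 59.3 CPM in KO epidermis and 119, 106 and 92.7 CPM in E13 Het epidermis. Foxm1 had 138, 162 and 128 CPM in E9 Het epidermis and 109, 95.7 and 107 CPM in dermis. KO replicates 1 and 3 were the lowest of the series and all KO values were below all E9 values (-1.01 ± 0.22, adjusted p = 0.00988). Plk1, a kinase for spindle assembly and mitotic exit, had 69.98, 74.1 and 77.2 CPM in KO epidermis and 76.5, 84.1 and 74.5 CPM in E13 Het epidermis. Plk1 had 119, 108 and 145 CPM in E9 Het epidermis and 59.5, 56.8 and 42.5 CPM in dermis. KO and E13 Het values overlapped and lay below the E9 values (-0.75 ± 0.19, adjusted p = 0.0298). The call of Foxm1 was lost without KO replicate 1 or E9 replicate 2 (adjusted p up to 0.0648), and that of Plk1 without KO replicate 1 or 2 or any E9 library (up to 0.113). Aurka and Aurkb, the kinases of spindle poles and of centromeres, averaged 46.5 ± 14.4 CPM in KO epidermis and 80.98 ± 9.62 CPM in E9 Het epidermis and 41.5 ± 15.6 CPM in KO epidermis and 66.5 ± 18.5 CPM in E9 Het epidermis (SD, n = 3 each), with adjusted p of 0.0831 and 0.227.

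Bub1, with the values given above, was 2.54-fold lower in KO (-1.34 ± 0.29, adjusted p = 0.00948), and its call was lost without E9 replicate 2 alone (adjusted p = 0.0513). Bub1b, which encodes the checkpoint protein BubR1, had 123, 139.8 and 114 CPM in KO epidermis and 132, 177 and 138 CPM in E13 Het epidermis. Bub1b had 217, 229.9 and 209 CPM in E9 Het epidermis and 119, 148 and 110.1 CPM in dermis. The E9 values stood above all values of the other 3 groups (-0.81 ± 0.17, adjusted p = 0.00753), and the call held in each leave-out of 1 library. Ttk, the kinase that starts checkpoint signalling, averaged 42.1 ± 9.91 CPM in KO epidermis and 77.1 ± 18.3 CPM in E9 Het epidermis, and Cdc20 63.04 ± 21.1 CPM in KO epidermis and 113 ± 10.8 CPM in E9 Het epidermis, neither called (0.0653 and 0.0528 for the adjusted p).

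Cenpa, the histone H3 variant that marks centromeres, had 20.5, 29.7 and 30.8 CPM in KO epidermis and 33.5, 33.8 and 30.3 CPM in E13 Het epidermis. Cenpa had 50.4, 70.4 and 52.00 CPM in E9 Het epidermis and 62.1, 81.9 and 50.9 CPM in dermis. KO and E13 Het values overlapped and both lay below the E9 values (-1.10 ± 0.30, adjusted p = 0.041). Kif11 had 141, 239 and 114 CPM in KO epidermis and 196, 315 and 299.5 CPM in E13 Het epidermis. Kif11 had 316, 311 and 327 CPM in E9 Het epidermis and 155, 201 and 172 CPM in dermis. KO replicate 2 was well above the other KO libraries but below the E9 range (-0.96 ± 0.24, adjusted p = 0.0263). Kif23, a motor of the central spindle in cytokinesis, had 116, 128 and 114 CPM in KO epidermis and 109, 126 and 143 CPM in E13 Het epidermis. Kif23 had 188, 156 and 197 CPM in E9 Het epidermis and 88.9, 85.8 and 99.00 CPM in dermis. Its KO values were close together and below the E9 values (-0.60 ± 0.17, adjusted p = 0.0464). The call of Cenpa was lost without KO replicate 1 or 2 or any E9 library (adjusted p up to 0.203), that of Kif11 without KO replicate 1 or 3 or any E9 library (up to 0.111), and that of Kif23 without any 1 of the 6 libraries (up to 0.137).

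Tpx2, which brings the Aurora A kinase to spindle microtubules, had 168, 206 and 144 CPM in KO epidermis and 191, 234 and 179 CPM in E13 Het epidermis. Tpx2 had 315, 299 and 275 CPM in E9 Het epidermis and 167, 184 and 148 CPM in dermis. E9 libraries were the highest of the series and KO libraries all lower (-0.79 ± 0.16, adjusted p = 0.0086), and the call held in each leave-out of 1 library. Top2a, the topoisomerase that untangles sister chromatids, had 437, 552 and 393 CPM in KO epidermis and 472, 756 and 527 CPM in E13 Het epidermis. Top2a had 711, 750.0 and 706 CPM in E9 Het epidermis and 464, 652 and 503 CPM in dermis. KO replicate 2 was the highest KO value and still below the E9 range (-0.65 ± 0.17, adjusted p = 0.028), while E13 Het replicate 2 was the highest value of the series. Its call was lost without KO replicate 1 or 3 or any E9 library (adjusted p up to 0.109). Of the remaining genes, Kif20a, a motor of the central spindle, Birc5, survivin, and Ccna2, cyclin A2, had adjusted p of 0.054, 0.196 and 0.0627, all with KO libraries below the E9 libraries.

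The G2 and mitosis count of 9 in this comparison became 5 without KO replicate 1, 4 without E9 replicate 1, 2 without E9 replicate 2 and 4 without E9 replicate 4. Calls over all genes fell as well, from 1001 to between 557 and 815 with 1 library left out. It was 5 without the library with fewest genes detected in each group, which left out KO replicate 3 and E9 replicate 4. DESeq2 called 15 and limma voom 16, and for S phase 5 and 6. Over all genes DESeq2 called 1822 of 17965 and limma voom 2563 of 13052, beside 1001 in the main fit. Dermal mesenchyme markers were higher in the KO than in the E9 libraries, as given above. Of 10 neuron markers, 10 had counts in KO and 10 in E9 libraries, with sums of 97.9 to 178 CPM and 67.2 to 92.6 CPM, the KO sums being higher. Map2 weighed most in the KO sums, with 76.5, 123 and 44.8 CPM in KO and 43.4, 22.7 and 15.9 CPM in E9 libraries. Of the 8 neuron markers tested, 5 had estimates above 0 and 3 below 0. Skeletal muscle markers summed to 1.55 to 32.7 CPM in KO libraries (7 of 8 with counts, Myf5 at 0), and melanocyte and neural crest markers to 15.3 to 31.2 CPM (8 of 8), beside the E9 sums given above. Ttn had 12.3, 23.9 and 0.259 CPM in KO libraries, beside its E9 values given above. The part of such cells, if present, in the differences was not tested.

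**Figure D4:**
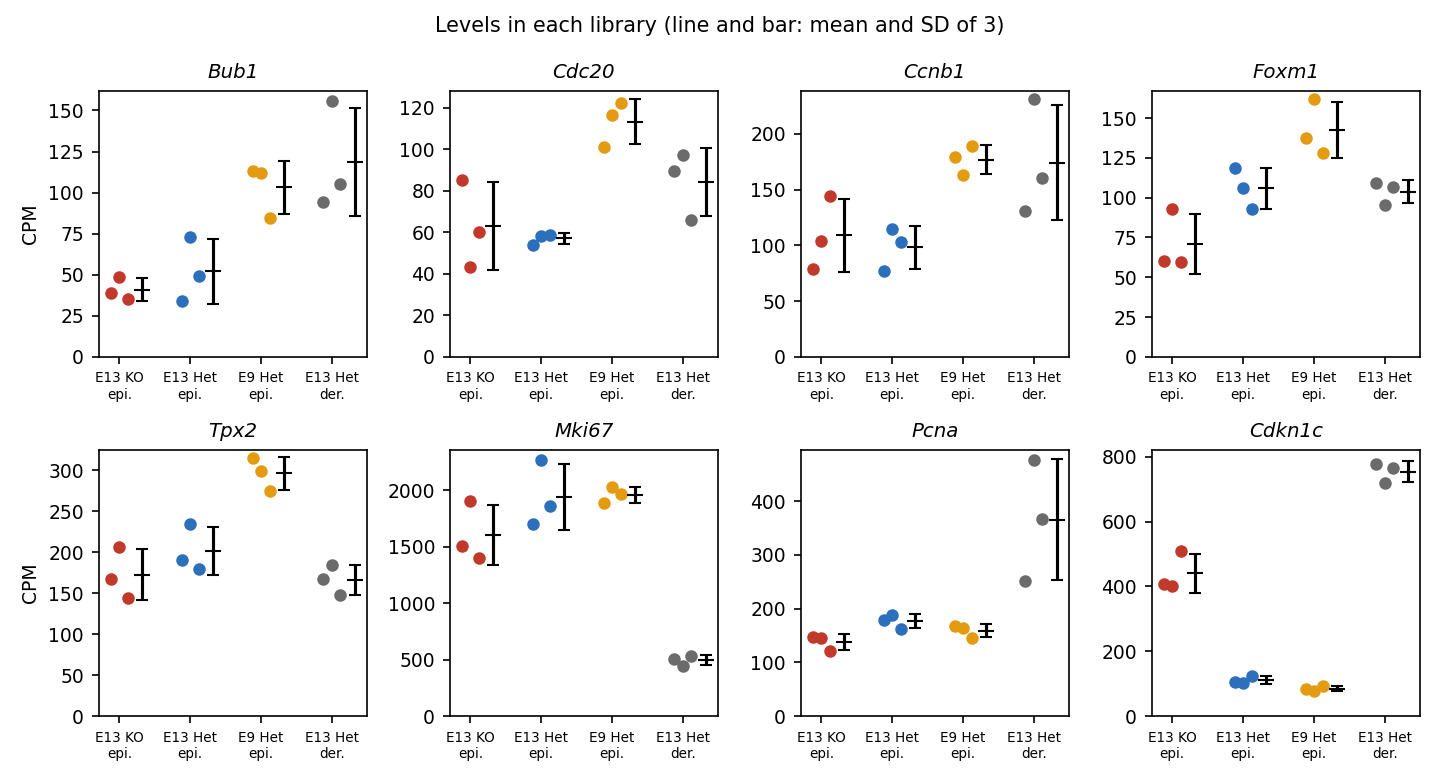
CPM of 8 genes in each library, with the mean and SD of the 3 libraries beside each group (epi., epidermis; der., dermis). Bub1, Cdc20, Ccnb1, Foxm1 and Tpx2 are highest among epidermal libraries in E9 Het, Mki67 is lower and Pcna higher in dermis than in epidermis, and Cdkn1c, a cyclin-dependent kinase inhibitor, is higher in KO than in E13 Het and E9 Het epidermis.

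Among the groups, KO libraries had the widest spread in the G2 and mitosis genes. The spread over all genes was not measured, and KO replicate 3 had the fewest gene counts of the series, 3373819. The coefficient of variation over 3 libraries had a median of 23.6% for G2 and mitosis genes in KO epidermis, 14.4% in E13 Het, 11.9% in E9 Het and 17.2% in dermis, and of 14.1%, 14.3%, 13.4% and 10.8% for S phase genes in that order of groups. Ccne1, cyclin E1, which starts S phase, had 58.1, 58.9 and 6.99 CPM in KO epidermis and 46.1, 34.9 and 45.5 CPM in E13 Het epidermis. Ccne1 had 73.1, 71.6 and 77.8 CPM in E9 Het epidermis and 36.3, 35.8 and 42.7 CPM in dermis. The value of KO replicate 3 lay far below the other epidermal libraries, and the estimates were -0.04 ± 0.54, adjusted p = 0.991 for KO against E13 Het and -0.81 ± 0.55, adjusted p = 0.494 for E13 Het against E9 Het. Rrm2, the small subunit of ribonucleotide reductase, had 74.2, 81.8 and 109 CPM in KO epidermis and 88.2, 118 and 87.8 CPM in E13 Het epidermis. Rrm2 had 129.6, 137 and 142 CPM in E9 Het epidermis and 113, 124 and 124 CPM in dermis. The E9 libraries were above all other epidermal libraries, without a call (-0.47 ± 0.21, adjusted p = 0.221 for E13 Het against E9 Het and -0.63 ± 0.21, adjusted p = 0.0842 for KO against E9 Het). Of the 9 epidermal libraries, KO replicate 3 had the lowest level for 15 of the 42 genes, KO replicate 1 for 10 and E13 Het replicate 1 for 8.

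E13 Het epidermis against dermis compares the skin layers at 1 age and genotype, but they were also prepared with different RNA selections, which cannot be told apart from the tissue. Changes ran in both directions. Of the S phase genes, Mcm3, Mcm7 and Mcm10 were called higher in epidermis and Pcna lower, 3 and 1 of 19. Of the G2 and mitosis genes, Mki67 and Cenpf were called higher and Ccna2, Ccnb1, Cdk1, Bub1 and Cenpa lower, 2 and 5 of 23. In this comparison 34.7% of the 12975 genes tested were called, 16.5% higher and 18.2% lower. The median was 0.11 for S phase and -0.04 for G2 and mitosis, beside -0.13 for all genes. Estimates lay below 0 for 8 of the 19 and 12 of the 23, against 54.4% of all genes, and 6 of the 19 and 12 of the 23 had an unadjusted p under 0.05, against 44.7%. Groups did not overlap for 5 and 3 S phase genes and 4 and 7 G2 and mitosis genes, higher and lower in epidermis, against 24.8% and 31.2% of all genes.

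Mki67, which encodes the Ki-67 protein that coats mitotic chromosomes and is the usual stain for dividing cells, had 1505, 1908 and 1404 CPM in KO epidermis and 1698, 2266 and 1858 CPM in E13 Het epidermis. Mki67 had 1886, 2025 and 1966 CPM in E9 Het epidermis and 508, 447 and 534 CPM in dermis. All epidermal libraries were far above all dermal ones, and E13 Het epidermis was 3.85-fold higher (1.95 ± 0.18, adjusted p = 1.7e-04). Cenpf, a kinetochore protein that builds up in G2, had 334, 439 and 361 CPM in KO epidermis and 408, 497 and 410.0 CPM in E13 Het epidermis. Cenpf had 469, 460.1 and 449 CPM in E9 Het epidermis and 132, 181 and 147 CPM in dermis. Epidermal and dermal libraries did not overlap (1.49 ± 0.19, adjusted p = 8.1e-04). Both calls, and that of Mcm7, held in each leave-out of 1 library and under each alternative tried.

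Cdk1 had 78.3, 71.98 and 32.1 CPM in KO epidermis and 55.9, 94.4 and 72.3 CPM in E13 Het epidermis. Cdk1 had 67.7, 103 and 90.9 CPM in E9 Het epidermis and 97.1, 184 and 127 CPM in dermis. Dermal libraries were above the E13 Het epidermal ones, dermis replicate 2 most of all (-0.90 ± 0.31, adjusted p = 0.0499). Ccna2, cyclin A2, which serves S phase and mitotic entry, had 101, 136 and 109.6 CPM in KO epidermis and 137, 144 and 135 CPM in E13 Het epidermis. Ccna2 had 188, 161 and 158 CPM in E9 Het epidermis and 229, 254 and 258 CPM in dermis. All dermal values stood above all epidermal values (-0.86 ± 0.15, adjusted p = 0.00351), and the span of the gene overlaps that of Exosc9. Ccnb1, Bub1 and Cenpa, with values given above, were lower in E13 Het epidermis than in dermis by -0.85 ± 0.27, adjusted p = 0.0401, -1.21 ± 0.33, adjusted p = 0.0236 and -1.02 ± 0.25, adjusted p = 0.0155. Dermis replicate 2 had the highest dermal value of Cdk1, Ccnb1, Bub1 and Cenpa. This library also had the most counts on Rn45s, a ribosomal RNA gene, at 30.7% of gene counts, against 11.2% in dermis replicate 1, 19.1% in dermis replicate 3 and 4.43% to 4.96% in E13 Het epidermis. Its TMM factor was 0.685, beside 0.875 and 0.836 for the other dermal libraries and 1.04 to 1.12 for E13 Het epidermis, and the part of this in the differences was not tested.

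Pcna, the sliding clamp of DNA polymerases, had 147, 145 and 121 CPM in KO epidermis and 179.6, 188 and 162 CPM in E13 Het epidermis. Pcna had 167, 164 and 145 CPM in E9 Het epidermis and 252, 477 and 367 CPM in dermis. Each dermal value exceeded each epidermal value (-1.08 ± 0.25, adjusted p = 0.0117), though the dermal values spread widely. Mcm7 had 216, 181 and 258 CPM in KO epidermis and 236, 241 and 225 CPM in E13 Het epidermis. Mcm7 had 317, 299 and 268 CPM in E9 Het epidermis and 153, 129 and 140.5 CPM in dermis. Epidermal values were all higher (0.71 ± 0.14, adjusted p = 0.00636), and the gene hosts 3 counted microRNAs and overlaps Ap4m1. Mcm10, which helps to start the loaded helicase, had 61.9, 67.1 and 113 CPM in KO epidermis and 50.2, 110.0 and 92.4 CPM in E13 Het epidermis. Mcm10 had 128, 158 and 177 CPM in E9 Het epidermis and 38.4, 37.5 and 36.1 CPM in dermis. Dermal values were close together and below all epidermal ones (1.16 ± 0.31, adjusted p = 0.02), and E13 Het replicate 1 was the lowest of the epidermal libraries. Mcm3, listed above, differed by 0.57 ± 0.15, adjusted p = 0.0194, without overlap.

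The scaling of the libraries bears on these values. With raw library totals in place of TMM the median of all genes was 0.30, against -0.13 with TMM. The calls over all genes split into 3156 higher and 1438 lower, against 2140 higher and 2364 lower with TMM, and the medians were 0.56 for S phase and 0.43 for G2 and mitosis. Relative to the median of all genes these were 0.26 and 0.13 with raw totals, 0.24 and 0.10 with TMM, and 0.26 and 0.10 with DESeq2's size factors in edgeR. The fit with DESeq2 itself gave 0.10 for S phase and -0.06 for G2 and mitosis, relative to genes without the filter on low counts. The G2 and mitosis median itself was 0.0028 both there and with DESeq2's size factors in edgeR. What differed was the median of all genes, 0.06 over 17408 genes with DESeq2 and -0.10 over 12975 filtered genes. With raw library totals the calls of Pcna, Ccna2, Ccnb1, Cdk1, Bub1 and Cenpa, all lower in epidermis, were lost. With these totals 7 S phase genes were called higher and 0 lower. Without single libraries, the G2 and mitosis count of 7 became 4 without E13 Het replicate 3, dermis replicate 2 or dermis replicate 3, and the S phase count of 4 became 2 without dermis replicate 3. Over all genes these 3 leave-outs called 3530, 3022 and 2934, beside 4504 in the main fit. Cdk1 was lost without E13 Het replicate 1 or 3 or dermis replicate 2 or 3 (adjusted p up to 0.207), Ccnb1 without any E13 Het library or dermis replicate 2 or 3 (up to 0.17), Bub1 without E13 Het replicate 3 or dermis replicate 2 or 3 (up to 0.0908) and Cenpa without dermis replicate 2 (0.105). Mcm10 was lost without E13 Het replicate 2 or 3 or dermis replicate 1 or 3 (up to 0.0779) and Mcm3 without E13 Het replicate 2 or dermis replicate 3 (up to 0.0655).

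In this comparison the size of the gene ran with the difference. Over the 42 genes, the log2 fold change of epidermis over dermis and the annotated span of the gene had a Spearman rho of 0.404, and over the 23 G2 and mitosis genes of 0.548, beside 0.189 over 11750 protein-coding genes. These are correlations across genes measured in the same 6 libraries, given as a description. In the 3 epidermal comparisons, whose libraries share 1 preparation, rho over the 42 genes was 0.012 for KO against E13 Het, 0.013 for E13 Het against E9 Het and 0.026 for KO against E9 Het. Over the G2 and mitosis genes it was -0.01, 0.129 and 0.074 in that order of comparisons, and over 11758 protein-coding genes -0.004, 0.067 and 0.045. Span is not transcript length, and the part of RNA selection in the dermal difference was not tested.

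**Figure D5:**
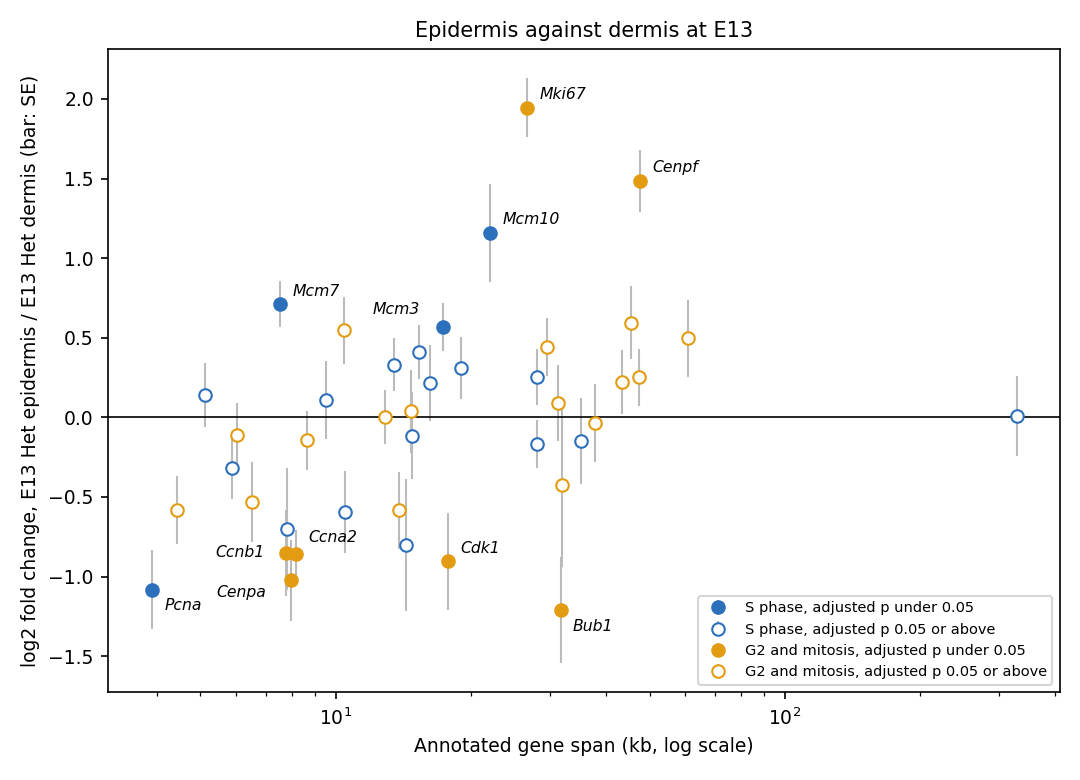
Log2 fold change of E13 Het epidermis over dermis (vertical axis, bar for the standard error) against the annotated span of the gene in kb on a log axis, for 19 S phase genes (blue) and 23 G2 and mitosis genes (orange), filled where the adjusted p was under 0.05. Mki67 and Cenpf are the highest points, and Pcna, Ccna2, Ccnb1 and Cenpa, all of short span, lie among the lowest with Bub1 and Cdk1.

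The 22 members never called include Mcm2, Cdt1, Rrm2 and Ccne1, described above, and 18 others, given here as the mean ± SD of 3 libraries per group. Of the helicase, Mcm4 averaged 240.2 ± 33.8 CPM in KO epidermis and 254 ± 36.2 CPM in E13 Het epidermis. Mcm4 averaged 293 ± 29.97 CPM in E9 Het epidermis and 198 ± 17.98 CPM in dermis. Mcm6 averaged 216 ± 13.5 CPM in KO epidermis and 227 ± 20.2 CPM in E13 Het epidermis. Mcm6 averaged 219 ± 39.3 CPM in E9 Het epidermis and 251 ± 7.37 CPM in dermis. All E13 Het epidermal values lay above the dermal values for Mcm4 and below them for Mcm6. Of the loaders and fork assembly factors, Cdc6, the partner of Cdt1, averaged 62.5 ± 14.9 CPM in KO epidermis and 67.01 ± 16.4 CPM in E13 Het epidermis. Cdc6 averaged 71.9 ± 7.57 CPM in E9 Het epidermis and 56.6 ± 5.65 CPM in dermis. None of these passed the test in any comparison. Gins2, a subunit of the GINS complex that joins the helicase, averaged 42.96 ± 4.37 CPM in KO epidermis and 37.6 ± 4.55 CPM in E13 Het epidermis. Gins2 averaged 32.3 ± 12.5 CPM in E9 Het epidermis and 60.1 ± 30.95 CPM in dermis, and its span overlaps that of Gse1.

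Among the genes of DNA synthesis, Pola1, the catalytic subunit of polymerase alpha, averaged 124 ± 19.4 CPM in KO epidermis and 117 ± 34.2 CPM in E13 Het epidermis. Pola1 averaged 124 ± 16.6 CPM in E9 Het epidermis and 114 ± 16.9 CPM in dermis. The means of Pola1 lay within 1 SD of each other in all 4 groups. Prim1, a primase subunit, averaged 38.6 ± 7.30 CPM in KO epidermis and 50.8 ± 12.4 CPM in E13 Het epidermis. Prim1 averaged 53.5 ± 2.50 CPM in E9 Het epidermis and 53.5 ± 12.1 CPM in dermis. Rrm1, the large subunit of ribonucleotide reductase, averaged 194 ± 45.5 CPM in KO epidermis and 264 ± 37.2 CPM in E13 Het epidermis. Rrm1 averaged 211 ± 31.8 CPM in E9 Het epidermis and 217 ± 23.7 CPM in dermis. Rrm1 had its highest mean in E13 Het epidermis and its lowest in KO, the SDs being wide. Tyms, which makes thymidylate, averaged 85.7 ± 9.23 CPM in KO epidermis and 83.3 ± 20.6 CPM in E13 Het epidermis. Tyms averaged 95.8 ± 7.71 CPM in E9 Het epidermis and 90.9 ± 19.4 CPM in dermis. Tyms means lay close together. E2f1, an activator of S phase genes whose span overlaps Necab3, averaged 29.6 ± 2.54 CPM in KO epidermis and 28.2 ± 1.63 CPM in E13 Het epidermis. E2f1 averaged 33.2 ± 17.3 CPM in E9 Het epidermis and 41.7 ± 5.40 CPM in dermis. E13 Het values of E2f1 were below all dermal values. Ccne2, cyclin E2, whose span overlaps Ints8, averaged 33.7 ± 6.52 CPM in KO epidermis and 23.3 ± 11.8 CPM in E13 Het epidermis. Ccne2 averaged 26.6 ± 3.65 CPM in E9 Het epidermis and 40.3 ± 10.1 CPM in dermis.

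Of the G2 and mitosis genes, Ccnb2, cyclin B2, averaged 74.9 ± 25.6 CPM in KO epidermis and 56.7 ± 10.9 CPM in E13 Het epidermis. Ccnb2 averaged 68.7 ± 9.29 CPM in E9 Het epidermis and 83.6 ± 15.3 CPM in dermis, and was the member of its set with an estimate above 0 for KO against E9 Het (0.12 ± 0.28, adjusted p = 0.884). Its E13 Het values lay below all dermal values. Aurka, whose span overlaps Cstf1 and whose KO and E9 Het means stand above, averaged 55.1 ± 4.48 CPM in E13 Het epidermis and 52.6 ± 12.3 CPM in dermis. Aurkb averaged 58.8 ± 5.24 CPM in E13 Het epidermis and 62.5 ± 5.07 CPM in dermis. Ttk averaged 52.5 ± 2.83 CPM in E13 Het epidermis and 52.7 ± 11.02 CPM in dermis. The means of these 3 kinases in E13 Het epidermis and dermis differed by less than 1 SD of the dermal libraries. Cenpe, the kinetochore motor that moves chromosomes to the spindle equator, averaged 157 ± 64.8 CPM in KO epidermis and 184 ± 53.1 CPM in E13 Het epidermis. Cenpe averaged 247 ± 55.2 CPM in E9 Het epidermis and 129 ± 18.1 CPM in dermis. Kif20a, whose span overlaps Brd8 and Cdc23, averaged 95.4 ± 40.1 CPM in KO epidermis and 131 ± 14.4 CPM in E13 Het epidermis. Kif20a averaged 175 ± 11.6 CPM in E9 Het epidermis and 142 ± 19.9 CPM in dermis. Its KO mean carries a wide SD, KO replicate 3 being the lowest library. Birc5, part of the chromosomal passenger complex, averaged 63.3 ± 10.4 CPM in KO epidermis and 78.6 ± 17.7 CPM in E13 Het epidermis. Birc5 averaged 91.4 ± 5.58 CPM in E9 Het epidermis and 111 ± 21.7 CPM in dermis. Nusap1, a spindle microtubule protein whose span overlaps Oip5, averaged 88.4 ± 36.7 CPM in KO epidermis and 90.05 ± 51.4 CPM in E13 Het epidermis. Nusap1 averaged 103 ± 19.7 CPM in E9 Het epidermis and 119 ± 40.4 CPM in dermis.

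Other cell cycle genes were read from lists of 49 further S phase and 60 further G2 and mitosis genes. In KO against E13 Het epidermis 0 of either list were called, 10 and 8 having an unadjusted p under 0.05, beside 2.2% of all genes called and 11.4% with such a p. In E13 Het against E9 Het epidermis 1 of 49 was called higher, Dtl, which targets Cdt1 for destruction, and 4 of 60 lower, Mad2l1 and Bub3 of the spindle checkpoint, Ncapg of condensin and Ube2c, an enzyme of the anaphase-promoting complex pathway. Over all genes 4.77% were called higher and 2.53% lower. Mad2l1 averaged 23.6 ± 3.27 CPM in KO epidermis, 30.4 ± 0.469 CPM in E13 Het epidermis, and 63.6 ± 8.38 CPM in E9 Het epidermis (SD, n = 3 each), with -1.06 ± 0.29, adjusted p = 0.0373 for E13 Het against E9 Het, lost without any 1 of the 6 libraries (adjusted p up to 0.131). Dtl averaged 139 ± 9.12 CPM in E13 Het epidermis and 79.2 ± 15.6 CPM in E9 Het epidermis (0.81 ± 0.20, adjusted p = 0.0246), lost without E13 Het replicate 1 or 2 or E9 replicate 1 or 4 (up to 0.111). Bub3 was lost without any 1 of the 6 libraries (up to 0.137), Ncapg without E13 Het replicate 1 or 2 or any E9 library (up to 0.155), and Ube2c without E13 Het replicate 1 or 3 or E9 replicate 1 or 2 (up to 0.196).

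In KO against E9 Het epidermis 4 of the 49 and 10 of the 60 were called lower, none higher, beside 3.05% of all genes tested. Mad2l1 was lower by -1.43 ± 0.29, adjusted p = 0.00688 and Ncaph, also of condensin, by -0.85 ± 0.17, adjusted p = 0.00728, and both calls held in each leave-out of 1 library. Of S phase, Cdca7, a gene induced at S phase entry, averaged 76.6 ± 8.92 CPM in KO epidermis and 187 ± 60.5 CPM in E9 Het epidermis (-1.30 ± 0.23, adjusted p = 0.00306) and likewise held. Lig1, the ligase that joins Okazaki fragments, Dut, which removes dUTP, and Fen1, the flap nuclease, were the other S phase calls. Fen1 was lost without KO replicate 1 or 2 or E9 replicate 1 or 2 (adjusted p up to 0.221), Dut without KO replicate 2 or 3 or E9 replicate 2 or 4 (up to 0.0852), and Lig1 without KO replicate 1 or E9 replicate 4 (up to 0.0569). In E13 Het epidermis against dermis 10 of 49 were called higher and 6 lower, and 9 of 60 higher and 4 lower, beside 16.5% of all genes called higher and 18.2% lower. Pole, the leading-strand polymerase, averaged 216 ± 25.4 CPM in E13 Het epidermis and 70.1 ± 11.5 CPM in dermis (1.60 ± 0.18, adjusted p = 3.9e-04), and Casc5, a kinetochore scaffold, 180.0 ± 7.86 CPM in E13 Het epidermis and 48.98 ± 8.27 CPM in dermis (1.86 ± 0.19, adjusted p = 2.5e-04). Ube2c averaged 15.4 ± 7.25 CPM in E13 Het epidermis and 106 ± 8.76 CPM in dermis (-2.79 ± 0.35, adjusted p = 6.9e-04), and Cks1b, a small partner of Cdk1, 24.3 ± 7.81 CPM in E13 Het epidermis and 106 ± 34.6 CPM in dermis (-2.14 ± 0.36, adjusted p = 0.00263).

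Genes that gate entry into the cycle were read from a list of 29, of which 27 were tested in epidermis. Of these, KO against E13 Het epidermis gave 1 call higher and 1 lower, against 0.835% and 1.36% of all genes. Cdkn1c, which encodes the cyclin-dependent kinase inhibitor p57, had 408, 402 and 511 CPM in KO epidermis and 105, 104 and 124 CPM in E13 Het epidermis. Cdkn1c had 84.6, 77.1 and 92.5 CPM in E9 Het epidermis and 779, 718 and 766 CPM in dermis. KO values lay above all E13 Het and E9 values and below the dermal ones, and KO was 3.95-fold higher than E13 Het (1.98 ± 0.17, adjusted p = 1.0e-05). Ccnd2, cyclin D2, had 270.1, 311 and 252 CPM in KO epidermis and 615, 608 and 449.7 CPM in E13 Het epidermis. Ccnd2 had 399, 377 and 335 CPM in E9 Het epidermis and 811, 643 and 577 CPM in dermis. KO values were below all E13 Het values (-1.02 ± 0.15, adjusted p = 0.00198). Both calls held in each leave-out of 1 library and under each of 10 other alternatives.

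In E13 Het against E9 Het epidermis 2 of the 27 genes of this list were called higher and 3 lower, beside 4.77% and 2.53% of all genes. Ccnd1, cyclin D1, averaged 29.7 ± 5.98 CPM in KO epidermis, 39.4 ± 13.8 CPM in E13 Het epidermis, and 112 ± 13.5 CPM in E9 Het epidermis, and was lower in E13 Het (-1.51 ± 0.28, adjusted p = 0.00414) and in KO (-1.93 ± 0.29, adjusted p = 8.5e-04) than in E9 Het. Mycn, a transcription factor of the Myc family, averaged 44.5 ± 20.9 CPM in KO epidermis, 35.9 ± 11.6 CPM in E13 Het epidermis, and 114 ± 10.4 CPM in E9 Het epidermis (-1.67 ± 0.35, adjusted p = 0.00811 for E13 Het against E9 Het). E2f5, an E2F that works with pocket proteins, was lower (-2.38 ± 0.45, adjusted p = 0.00404), while Rbl2, the pocket protein p130 (2.50 ± 0.62, adjusted p = 0.0261), and Ccnd2 (0.60 ± 0.15, adjusted p = 0.0276) were higher. The calls of Ccnd1, Mycn and E2f5 held in each leave-out of 1 library. Rbl2 was lost without E13 Het replicate 1 or 2 or E9 replicate 2 (adjusted p up to 0.0964), and Ccnd2 without E13 Het replicate 1 or 2 or any E9 library (up to 0.113). Cdkn1a and Cdkn1b, the inhibitors p21 and p27, were called in none of the 4 comparisons. Cdkn1a averaged 6.71 ± 5.96 CPM in KO epidermis and 16.7 ± 14.5 CPM in E13 Het epidermis. Cdkn1a averaged 23.4 ± 6.57 CPM in E9 Het epidermis and 16.3 ± 7.07 CPM in dermis. The Cdkn1a values were low and spread widely within groups. Cdkn1b averaged 34.7 ± 18.1 CPM in KO epidermis and 29.8 ± 13.04 CPM in E13 Het epidermis. Cdkn1b averaged 23.4 ± 8.82 CPM in E9 Het epidermis and 40.2 ± 7.96 CPM in dermis.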

How the data were processed

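The RNA was made into strand-specific libraries, per the labels' protocols, and the authors deposited 1 table of raw read counts per gene symbol for each of the 12 libraries. Tools and build were TopHat2, Bowtie2, HTSeq and mm10, per the submitters' processing notes. The sources used here do not say whether counting used strand, and 9 of the 42 genes overlap another counted gene. The 5 summary lines of each table, 48.8% to 63.8% of epidermal and 20.2% to 21.6% of dermal counts, were left out. ATAC and ChIP samples were not analysed here. Counts were filtered (filterByExpr), scaled by TMM and tested with edgeR 4.0.16 (quasi-likelihood, robust, R 4.3.3), with 1 fit of the 9 epidermal libraries (13052 genes) and 1 of the 6 E13 Het libraries (12975 genes), adjusted by Benjamini-Hochberg over all genes. CPM use TMM-scaled totals of 12 libraries. Alternatives were DESeq2 1.42.0, limma 3.58.1 voom, other scalings and filters, a replicate block, and leaving out each library. The code was run on simulated counts with known changes, whose spread was set beforehand and not fitted to these libraries. That run therefore gives no measure of how many changes the tests would find here. Members and lists were chosen with earlier results of these data known. Values in every library are given for members called at least once and for Mcm2, Pcna, Rrm2, Ccne1, Cdk1, Ccnb1, Top2a and Mki67. Of the other cell cycle lists, genes were named from the 4 called with the smallest adjusted p per comparison, and Ccnd1, Ccnd2, Cdkn1a, Cdkn1b, Cdkn1c and Mycn whatever their test.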

Additional observations from a re-analysis of the deposited data

How the results depend on the processing

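Counts below are of the 42 genes, at an adjusted p under 0.05. The tools also differed over all genes. In KO against E13 Het, DESeq2 and limma voom called 650 and 635 genes, beside 287 in the main fit. In E13 Het against E9 Het they called 1671 and 1692, beside 952, and in KO against E9 Het 1822 and 2563, beside 1001. In KO against E13 Het epidermis, the count of 0 for S phase became 1 with DESeq2 and 1 with limma voom, and the count of 0 for G2 and mitosis became 1 with limma voom and 0 to 1 in the leave-outs of 1 library. In E13 Het against E9 Het epidermis, the count of 0 for S phase became 1 with limma voom and 1 with no filter on low counts. The count of 3 for G2 and mitosis became 7 with DESeq2, 7 with limma voom, 5 with DESeq2's size factors in edgeR, 6 with a filter at a mean of 5 CPM, and 0 to 3 in the leave-outs. In KO against E9 Het epidermis, the count of 2 for S phase became 5 with DESeq2, 6 with limma voom, 0 with raw library totals, and 0 to 3 in the leave-outs, and the count of 9 for G2 and mitosis became 15, 16, and 2 to 7 in the leave-outs. In E13 Het epidermis against dermis, the count of 4 for S phase became 7 with raw totals and 2 to 4 in the leave-outs, and the count of 7 for G2 and mitosis 4 to 7. Raw totals gave medians of 0.56 and 0.43 there. Fits without the 1 library per group that had fewest genes detected gave 0 for G2 and mitosis in E13 Het against E9 Het and 5 in KO against E9 Het. That setting, raw totals and fits of the compared groups alone were chosen after seeing the data. In E13 Het against E9 Het, calls over all genes were 964 with DESeq2's size factors in edgeR, beside 952 in the main fit. They were 1001 of 11042 with the filter at 5 CPM and 1067 of 18024 with no filter. Raw totals called 1059 in KO against E9 Het and 4594 in E13 Het epidermis against dermis. Without the library with fewest genes detected per group, 727 were called in KO against E9 Het. Over all genes the leave-outs of 1 library called 182 to 348 in KO against E13 Het and 569 to 812 in E13 Het against E9 Het. They called 557 to 815 in KO against E9 Het and 2934 to 5269 in E13 Het epidermis against dermis, where the main fit called 4504. No direction of a called gene reversed under the alternatives run.

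With the replicate number as a block, the counts for S phase and for G2 and mitosis were 0 and 0 in KO against E13 Het, 0 and 0 in E13 Het against E9 Het, 1 and 4 in KO against E9 Het, and 4 and 7 in E13 Het epidermis against dermis. Over all genes the block left 286, 576, 540 and 3464 calls in that order of comparisons. Deviations of same-numbered libraries correlated by 0.011, 0.196 and -0.007 between KO and E13 Het, by 0.005 and 0.019 between E13 Het and E9 Het, by -0.003 and -0.003 between KO and E9 Het, and by 0.056, 0.019 and 0.044 between epidermis and dermis, where each library correlated best with its own number. The numbers were not taken to pair the samples. Epidermal depth, 3373819 to 7777808 gene counts, limits the precision of the least abundant members.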
